A study of Mus musculus with 6 samples.

Results

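Distal mouse chromosome 1 was read here as the 805 probes, of 41174 non-control probes on the array, that the files place between positions 150000000 and 197000000 of chromosome 1 (mm9). The window held 809 probes, and the probes of 4 genes were left out by choice (Lefty1, Apoa2, Pcp4l1 and Ifi202b). The remaining probes carry 527 gene names, and 191 of these names have several probes. The rule names a stretch of the chromosome and these 4 genes, and holds no measured value. The window is 47 Mb long, and at neither edge was the nearest probe measurable in these islets: the outermost probes inside belong to the clone AK043237 (position 150082183) and to the complement receptor gene Cr2 (position 196989549), and those just outside to ENSMUSG00000053988 (149128467) and AK029515 (197046506).

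RNA came from pancreatic islets of male mice of 2 obese strains. NZO (NZO/HiBomDife, a polygenic obese strain prone to diabetes) is represented by replicates 10, 11 and 12, and B6-ob/ob (C57BL/6.V-Lepob/ob, obese through a leptin mutation and resistant to diabetes) by replicates 4, 5 and 6. All mice were kept to 18 weeks on a high-fat diet without carbohydrate, were then switched to a diet with carbohydrate, and gave islets 48 hours later, so the comparison is of strains under one diet challenge and holds no unchallenged mice. No label tells whether islets of several animals were pooled for a sample. The p-values therefore measure sample-to-sample scatter alone, part of which may be technical.

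The window carries many genes of immunity. Among them are Fc receptor genes, which let leukocytes respond to antibody, the SLAM family of leukocyte surface receptors, the selectins by which endothelium holds passing leukocytes, pentraxins of the acute phase, and the p200 family of interferon-inducible DNA and RNA sensors. Flavin mono-oxygenases, laminin chains, regulators of G-protein signalling and subunits of mitochondrial enzymes lie there too. Several quantitative trait loci for diabetes, obesity and autoimmunity have been mapped to distal chromosome 1 in other crosses, which is background here and not a result.

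Each probe is a 60-base DNA strand that reads one short stretch of a transcript, so a gene with several probes is read at several places in the same 6 RNA samples; some probes of a gene overlap in sequence. In 4 genes (Ifi203, Rgl1, Soat1 and Vamp4) the probes gave strain differences in opposite directions, and the first 30 bases of probes of these genes are shown because those results rest on which stretch was read. The positions are mm9 starts, and the strand is that of the transcript as the files give it; no base is capitalised because no motif is marked.
Rgl1, minus strand, 154364794: tgatgggttttgtctgtaataacagtttca
Rgl1, minus strand, 154366002: gttgagcatcattggtgaaagcgacagata
Soat1, minus strand, 158358766: taagactgcaaactacttagcattcaaaga
Soat1, minus strand, 158359977: tactaataatcccaaaatggctcctaaggc
Vamp4, plus strand, 164511997: agcatgttcagaatcaggtggatgaagtta
Vamp4, plus strand, 164524956: gaaactagatacttgccagtctgttatttg
Vamp4, plus strand, 164528962: cttagtagtatgtcattattttagacctca
Ifi203, minus strand, 175850608: actcctcttgaactccatgaaagaaacttc
Ifi203, minus strand, 175863777: cttgtcctgatattatgttattgtcttaat
None of these probes shares a run of 20 bases with any other probe of the array on either strand. The Vamp4 probe that starts at 164511997 spans 6386 bases of the genome, so it reads spliced exons. Whether the others lie in coding sequence or in untranslated exon is not given in the sources used here.

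On each array, 478 to 500 of the 805 probes were well above background, against 23621 to 24710 of all probes. A probe was called measured when it was well above background on at least 3 of the 6 arrays, which left 497 probes of 325 gene names in the window and 24628 on the whole array. Of the other 308 probes, 265 were above background on no array. Levels are log2 signals relative to each array's 75th percentile, which is set to 0, and differences are NZO minus B6-ob/ob, with each scanner file's own label giving the strain. This direction opposes the deposited value table, in which each of the 6 columns followed an array of the other strain (r = 0.966 to 0.984 with that array and r = -0.778 to -0.523 with the array of its own label, over 18307 probes); which labelling is correct was not tested. Of 11 listed beta cell markers, 10 were on the array. All 10 were well above background on every array, 1 of them lower in NZO and none higher. Acinar markers also read high, with a mean level of 5.68 to 6.25 in NZO and 3.08 to 4.55 in B6-ob/ob. The mean level of the beta cell markers was 4.30 to 4.66 in NZO and 4.25 to 5.05 in B6-ob/ob.

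In the window, 69 probes were higher and 61 lower in NZO by limma at an adjusted p under 0.05. Those 130 probes are 26.2% of the measured ones, against 21.8% over the whole array and 23% on the rest of chromosome 1. The higher share was 13.9% against 11.5% on the array, and the lower share 12.3% against 10.3%, so both lay within a few points of the background. Chromosome by chromosome the share called ran from 16% to 25.8%. The strains did not overlap on 230 probes of the window (46.3%, against 41% of all measured probes). Among the probes well above background on all 6 arrays, 23.6% of 444 were called, against 19.7% of all such probes.

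The excesses in NZO were greater in size than the deficits. The median called excess was 1.32 and the median called deficit -0.87, and 46 excesses (9.26%, against 7.44% on the array) but 19 deficits (3.82%, against 4.28%) reached 1 on the log2 scale. The array as a whole was thus tilted the same way. Of the called excesses, 9 were well above background on no B6-ob/ob array, while 0 called deficits were so on no NZO array. The sizes of those excesses rest on dim signal. Over all 497 measured probes the median difference was 0.04, against -0.06 on the array, and the median absolute difference was 0.36 against 0.30. In the window, 12 probes were well above background on every NZO array and on no B6-ob/ob array (1.49% of 805, against 0.886% of all probes), while no probe showed the reverse (0.702% of all probes did). These directions rest on the scanner files' labels: by those of the value table the greater sizes would be deficits of NZO, and the 12 probes would be above background in B6-ob/ob only. The called probes numbered 83, 82 and 70 when NZO replicate 10, then NZO replicate 11, then B6-ob/ob replicate 5 was dropped, with 44, 46 and 39 higher and 39, 36 and 31 lower. With the slide as a block they numbered 81, of which 48 were higher and 33 lower. Whole-array counts in these settings are not given here, so a change particular to the window cannot be told from one over the whole array.

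**Figure D1:**
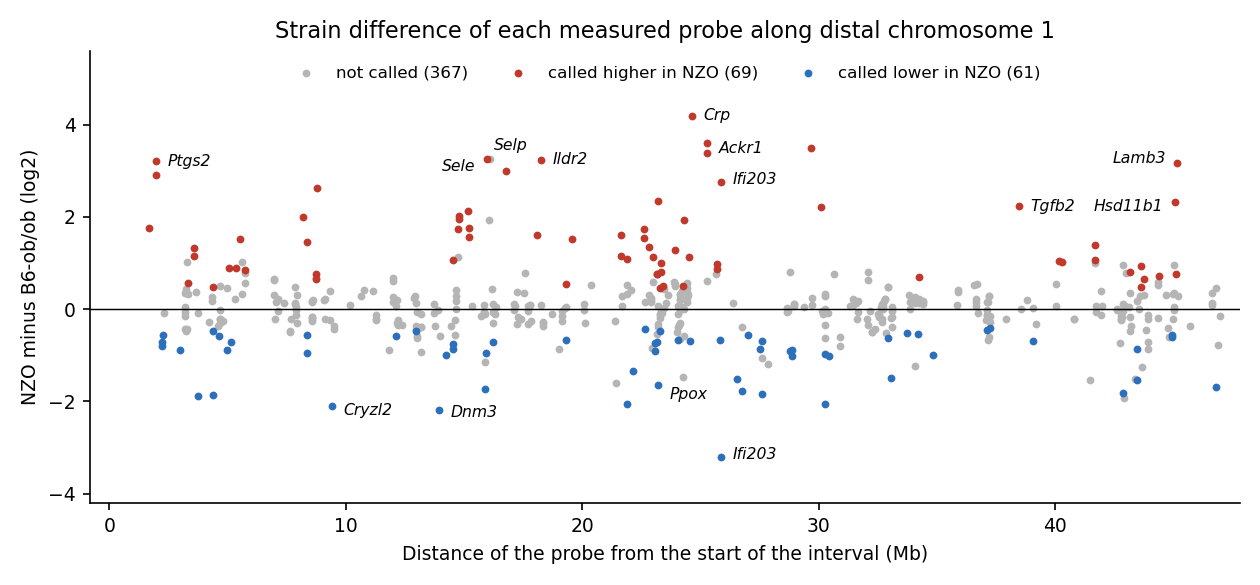
Each point is 1 of the 497 measured probes, placed by its distance in Mb from the start of the window (x axis) and by its NZO minus B6-ob/ob difference on the log2 scale (y axis), with called probes in colour. Called probes of both directions lie along the whole window, the 69 excesses reach 4.19 at Crp, and Ifi203 appears both at 2.76 and at -3.21.

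Called probes were not spread evenly along the window. The stretch from 175 to 180 Mb held 17 called probes among 33 measured (51.5%), 6 higher and 11 lower, with a median absolute difference of 0.81. It begins with the chemokine receptor gene Ackr1 and the p200 cluster, where both directions occur, and goes on through the formin gene Fmn2, Rgs7, the fumarase gene Fh1, the opsin gene Opn3 (-1.85, well above background on 2 of 3 NZO arrays, but -0.41 with normexp background correction) and the centrosomal gene Sdccag8, whose called probes were all lower. The first 5 Mb followed with 16 of 40 called (40%), then the stretch from 170 to 175 Mb, the site of the Fc receptor and SLAM genes, with 29 of 86 (33.7%; 19 higher and 10 lower). From 180 to 190 Mb the called share was low, with 10 of 71 (14.1%) and then 4 of 30 (13.3%). The last stretch, from 195 Mb, held 16 measured probes and is too thin to rank. These stretches were compared after their values were seen. The stretch from 175 to 180 Mb held 10, 9 and 8 called probes when NZO replicate 10, then NZO replicate 11, then B6-ob/ob replicate 5 was dropped, and with the slide as a block 10. Called probes of the whole window fell in the same settings, from 130 to 83, 82, 70 and 81.

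**Figure D2:**
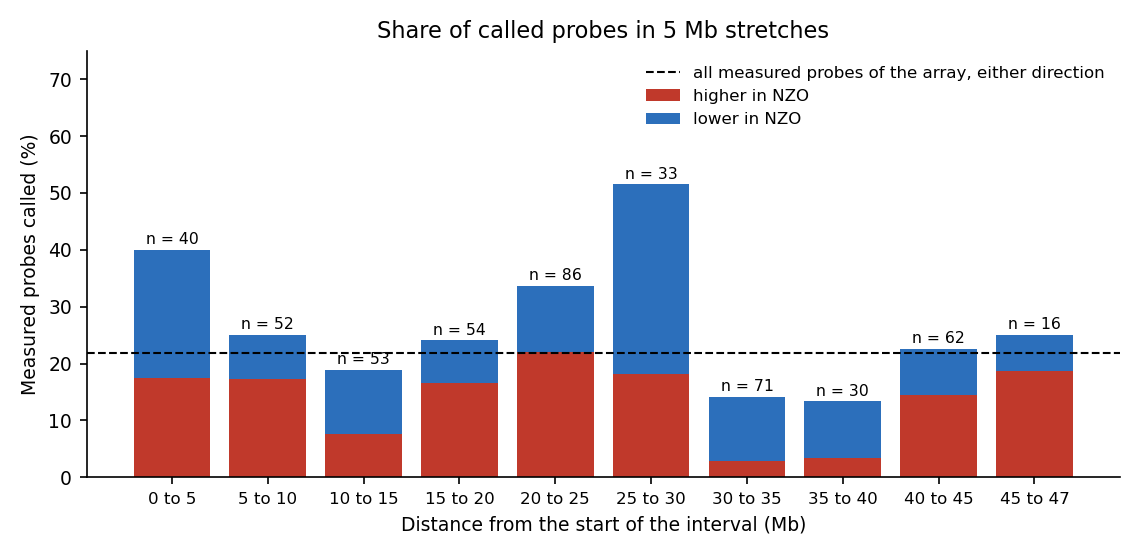
Bars give the share of measured probes called higher (red) or lower (blue) in NZO in consecutive 5 Mb stretches, labelled by distance from the start of the window, with the number of measured probes above each bar. The dashed line is the 21.8% called over the whole array; the stretch from 25 to 30 Mb (175 to 180 Mb of the chromosome) stands at 51.5% and both stretches from 30 to 40 Mb lie under the line.

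The genes with opposite probes come first among the individual results. Of 123 gene names with at least 2 measured probes, these 4 (3.25%) had probes called in opposite directions, against 52 of 5929 names (0.877%) on the whole array. In another 28 names (22.8%, against 23.6%) some probes were called and others not, in 15 (12.2%, against 9.02%) all measured probes were called the same way, and in 76 (61.8%, against 66.5%) none was. Ifi203 counted among the 4 through a probe that passed the filter only through the NZO arrays and could hardly be called lower. Among probes well above background on all arrays, Rgl1, Soat1 and Vamp4 remained.

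Soat1 encodes the enzyme that esterifies cholesterol for storage. Its probe at 158359977 read 1.19, 1.20 and 1.21 in NZO replicates 10, 11 and 12 and 1.75, 1.81 and 1.75 in B6-ob/ob replicates 4, 5 and 6, a difference of -0.57 ± 0.10 (SE, limma adjusted p = 0.0104). A probe further towards the 5′ end also differed downward, by -0.96 ± 0.14 (adjusted p = 0.00571). The 3′-most probe, 1211 bases from the nearest of the others, read -2.29, -2.23 and -2.27 in NZO and -3.96, -3.53 and -3.66 in B6-ob/ob, an excess of 1.45 ± 0.14 (adjusted p = 0.00136). On all of these Soat1 probes the strains did not overlap. Without B6-ob/ob replicate 5 the adjusted p of the middle probe was 0.0617 and with the slide as a block 0.0637, and with normexp background correction the 5′ probe stood at -0.36 (0.0989).

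Vamp4, a vesicle SNARE of the trans-Golgi network and endosomes, gave the same arrangement. Its middle probe at 164524956 read 0.88, 0.85 and 0.90 in NZO and 1.97, 1.58 and 1.70 in B6-ob/ob (difference -0.87 ± 0.14, limma adjusted p = 0.00677), and its 5′-most probe differed by -0.76 ± 0.14 (adjusted p = 0.0137). The 3′-most probe, 4006 bases downstream of the middle one, read 1.94, 2.12 and 2.00 in NZO and 0.84, 0.97 and 1.08 in B6-ob/ob, an excess of 1.06 ± 0.12 (adjusted p = 0.00235). In Rgl1, an exchange factor for the small GTPase Ral, the 3′ probe was higher by 0.47 ± 0.11 (adjusted p = 0.0286) and the probe 1208 bases upstream lower by a difference of -0.48 ± 0.11 (adjusted p = 0.0275). The Rgl1 pair was the least firm: whichever of the 6 samples was left out, at least 1 of its probes lost its call, with the adjusted p of the 3′ probe reaching 0.102 without NZO replicate 10 and that of the 5′ probe 0.105 without NZO replicate 11. With the slide as a block neither probe was called (0.0838 and 0.123).

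Ifi203, a p200 sensor of the interferon response, ran the other way. Its 3′ probe read -5.45, -4.22 and -5.07 in NZO and -1.97, -1.63 and -1.52 in B6-ob/ob, a difference of -3.21 ± 0.32 (limma adjusted p = 0.00148), and was well above background on 1 of 3 NZO arrays. The probe 13169 bases upstream read -4.16, -2.95 and -3.76 in NZO and -5.31, -7.38 and -6.46 in B6-ob/ob. It was above background on no B6-ob/ob array, so its excess is given as a bound: at least 3.53-fold in NZO (adjusted p = 0.0172; measured means -3.63 and -6.38). A bound here sets the NZO mean against the higher of the dim probe's own signal and the lowest signal that was well above background on each array. Without NZO replicate 11 or with the slide as a block the call of this second probe was lost (adjusted p = 0.061 and 0.0769), and since Rgl1 went too, Soat1 and Vamp4 were the 2 genes left in either case. The NZO minus B6-ob/ob difference of a gene's 3′-most measured probe was set against the mean difference of its other measured probes. Across the array it was the greater in 3719 of 5843 names (63.6%), and in the window in 71 of 122 (58.2%). The part of this tilt in the 3 genes with a higher 3′ probe was not tested.

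**Figure D3:**
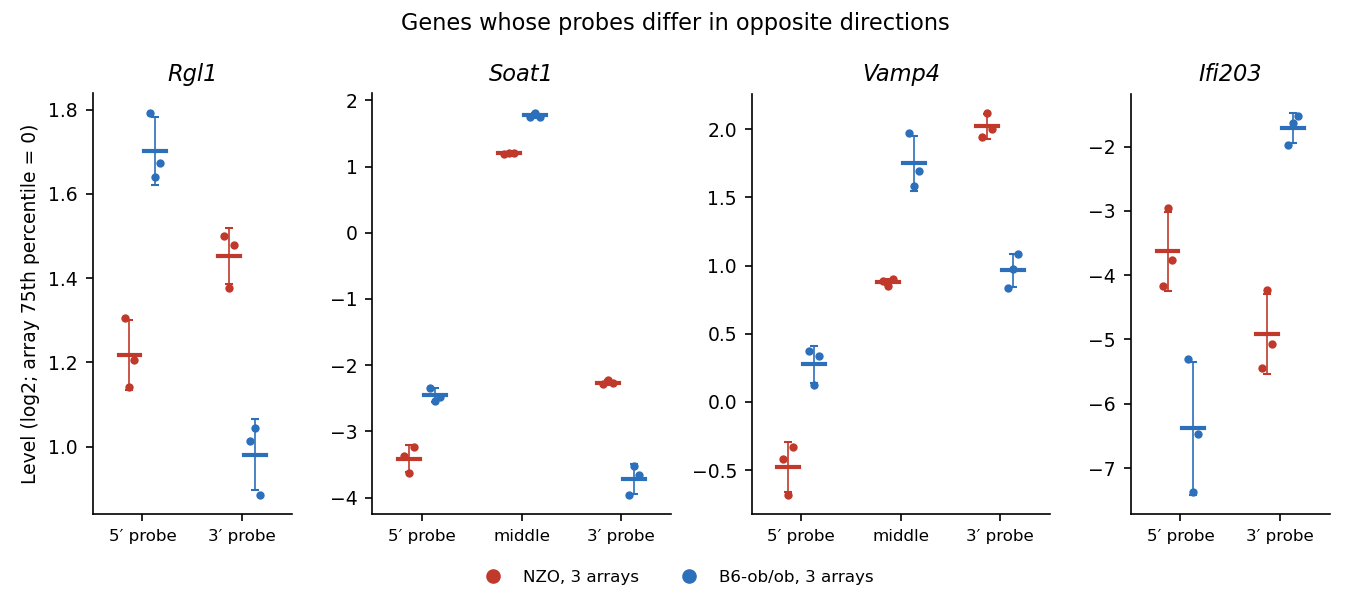
Points are the 3 NZO (red) and 3 B6-ob/ob (blue) samples for each measured probe of the 4 genes, ordered from the 5′ to the 3′ end of the transcript; lines are means and bars 1 SD, on a log2 scale whose 0 is each array's 75th percentile. In Rgl1, Soat1 and Vamp4 NZO lies above B6-ob/ob at the 3′ probe and below it at the others, and in Ifi203 the order is turned.

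The rest of the p200 cluster, read by 18 probes of which 6 were measured, moved less. Ifi204 was higher in NZO at both of its measured probes, by 0.98 ± 0.22 (limma adjusted p = 0.0237) and 0.88 (adjusted p = 0.0132). Ifi211, listed on the array as Mnda, was lower at a difference of -0.68 ± 0.19 (adjusted p = 0.0488), and Ifi207 did not pass the test (0.76, adjusted p = 0.0916; 1.00 and 0.0367 without NZO replicate 12). In all, 1 of the 4 measured genes was higher and 2 were lower, with Ifi203 counted at its brightest probe. Over all genes of the array, each at its brightest probe, 22.1% were called, 13.2% higher and 8.92% lower, which is the background for this and the following gene lists. The genes of this cluster are near-identical copies of one another in parts, so the gene assignment of the readings is uncertain. The longest run shared by probes of different p200 genes was 18 bases, between an Ifi204 probe and an Ifi206 probe that was not measured. Runs shared between probes do not show whether a probe binds transcripts of other genes, which was not tested. The Ifi211 call was lost without any single sample other than B6-ob/ob replicate 6 (adjusted p 0.0707 to 0.144). Ifi204 lost its call at the brighter probe without NZO replicate 10 or 11 or B6-ob/ob replicate 5 (0.0668 to 0.0793), and at the other probe without B6-ob/ob replicate 5 (0.0575). With the slide as a block both Ifi204 probes and Ifi211 lost their calls (0.0506 to 0.064) and Ifi207 passed (0.0496).

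Of 5 measured Fc receptor and pentraxin genes 3 were higher in NZO and none lower (median 0.77, against -0.06 over the array). The list also held the neighbouring gene Ackr1, with which 4 of 6 were higher (66.7%, against 13.2% of all genes) and the median was 0.95. Of these 6, 5 were well above background on all arrays. Crp passed the filter only through the NZO arrays, so it could hardly be called lower. Crp, a pentraxin, read -3.54, -3.47 and -3.62 in NZO and -7.61, -7.71 and -7.88 in B6-ob/ob, where it was above background on no array. The excess was at least 3.76-fold (limma adjusted p = 3.08e-05; measured means -3.54 and -7.73). Ackr1, an endothelial chemokine-binding receptor listed as Darc, read 0.60, 0.85 and 0.75 in NZO and -0.77, -3.08 and -4.08 in B6-ob/ob, an excess of 3.37 ± 0.79 (10.4-fold, adjusted p = 0.0275). Its NZO samples lay close together while the B6-ob/ob samples spanned over 3 units. Fcgr3, an activating IgG receptor, was higher by 1.13 ± 0.23 (adjusted p = 0.0172) at its brighter probe but not called at the other (0.60, adjusted p = 0.138), and Fcer1g, the signalling chain that Fc receptors share, by 0.77 ± 0.14 (adjusted p = 0.0114). The inhibitory receptor Fcgr2b (0.14) and Fcgr4 (-0.83) did not pass. Left out in turn, NZO replicates 10, 11 and 12 and B6-ob/ob replicate 5 each ended the Ackr1 call, as did the slide as a block (adjusted p 0.0701 to 0.1; a second Ackr1 probe, at 3.60, kept it without NZO replicate 12), NZO replicates 10 and 11 and B6-ob/ob replicate 5 the Fcgr3 call (0.0605 to 0.062), and B6-ob/ob replicate 5 the Fcer1g call (0.0555).

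Of the SLAM family, which tunes leukocyte contacts, 4 of 9 genes were measured. Slamf8 was higher by at least 1.69-fold (limma adjusted p = 0.0171; measured means -4.59 in NZO and -5.72 in B6-ob/ob, where it was above background on no array), and Slamf6 (0.59) and Cd48 (0.29) did not pass. Slamf8 passed the filter only through the NZO arrays, so it could hardly be called lower. Slamf8 lost its call without NZO replicate 10 or 11 or B6-ob/ob replicate 5 (adjusted p 0.0602 to 0.065) and with another background correction (normexp with the 75th percentile, difference 0.32, adjusted p = 0.116).

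Among leukocyte, coagulation and complement genes 4 of 9 measured were higher (44.4%, against 13.2% of all genes) and none lower. Of the 9, 6 were well above background on all arrays. Ptgs2 and Pla2g4a passed the filter only through the NZO arrays, so they could hardly be called lower, and their part in the share is no separate evidence. E-selectin, Sele, by which inflamed endothelium captures leukocytes, read -0.37, -0.82 and -0.50 in NZO and -2.11, -4.11 and -5.21 in B6-ob/ob (3.25 ± 0.73, limma adjusted p = 0.0248), where 2 of 3 arrays were well above background, so the size of the difference rests in part on a dim signal. P-selectin, Selp, differed by the same 3.25 with an SE of 0.95 and missed the threshold (adjusted p = 0.057). It read 1.16, 1.52 and 1.33 in NZO and 0.35, -2.42 and -3.65 in B6-ob/ob, so replicate 4 of B6-ob/ob lay within 1 unit of the lowest NZO sample and the others did not. Without that replicate the Selp difference at this probe was 4.38 (limma adjusted p = 0.00141). The other measured Selp probe differed by 1.93 with all samples (limma adjusted p = 0.199). On it replicate 4 of B6-ob/ob (-0.51) lay above every NZO sample (-1.06 to -0.67). The prostaglandin synthase gene Ptgs2 and the phospholipase gene Pla2g4a, which releases its substrate, were above background on every NZO array and on no B6-ob/ob array. Their bounds were at least 2.28-fold for Ptgs2 (adjusted p = 0.00313; means -4.26 and -7.17) and at least 3.38-fold for Pla2g4a (adjusted p = 0.000636; means -3.58 and -5.34). Arhgap30, a GTPase-activating protein of blood cells, was higher by 0.80 ± 0.22 (adjusted p = 0.048). Without any one of NZO replicates 10, 11 and 12 and B6-ob/ob replicate 5, Sele lost its call (adjusted p 0.0699 to 0.0912), and Arhgap30 lost it without NZO replicate 10 or 12 or B6-ob/ob replicate 4 or 5 (0.105 to 0.163), with the slide as a block (0.18) and with normexp background correction (difference 0.34, adjusted p = 0.0886).

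Of 19 measured matrix and adhesion genes 9 were higher (47.4%, against 13.2% of all genes) and 1 was lower (5.26%, against 8.92%; median 0.50). The laminin chain gene Lamb3 read -2.16, -2.03 and -2.19 in NZO and -4.10, -5.20 and -6.56 in B6-ob/ob (3.16 ± 0.58, limma adjusted p = 0.0116), where only 1 of 3 arrays was well above background. Dermatopontin, Dpt, a collagen-binding matrix protein, was higher by 2.99 ± 0.64 (adjusted p = 0.0205; 2 of 3 B6-ob/ob arrays read it well above background), the aggrecan-cleaving protease Adamts4 by 2.34 ± 0.61 (adjusted p = 0.041), and Tgfb2, a growth factor held in the matrix, by 2.23 ± 0.23 (adjusted p = 0.00169). Tgfb2 read -2.57, -1.92 and -2.26 in NZO and -4.81, -4.47 and -4.16 in B6-ob/ob, so here both strains were tight. Olfml2b (1.54), Lamc1 (0.89), Igsf8 (0.50) and F11r (0.49) were also higher. Dpt lost its call without NZO replicate 10 or 12 or B6-ob/ob replicate 5 (adjusted p 0.0631 to 0.0667), Adamts4 without any sample but B6-ob/ob replicate 4 (0.0709 to 0.135), F11r likewise (0.0596 to 0.124), and Igsf8 without any one sample (0.0593 to 0.113). With the slide as a block all of Dpt, Adamts4, F11r and Igsf8 lost their calls (0.0533 to 0.113).

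The levels of markers of other cell types moved with these groups. In bulk islets, fewer cells of a type and less RNA per cell cannot be told apart. The mean stromal marker level was 1.51 to 1.74 in NZO and -1.51 to -0.28 in B6-ob/ob, with 10 of 12 markers higher in NZO, and the mean macrophage level 0.21 to 1.03 against -0.45 to -0.08 (6 of 11 higher). The mean endothelial level was 1.26 to 1.53 against 0.45 to 0.95 (4 of 11 higher), and the mean lymphocyte level -3.32 to -3.05 against -5.51 to -4.87, with 6 of 12 markers measured and all 6 higher. Acinar markers stood at 5.68 to 6.25 against 3.08 to 4.55, with 14 of 16 higher, and 6 of 10 ductal markers were higher. The acinar, ductal, stromal and endothelial means fell in one order among the B6-ob/ob samples, replicate 4 above 5 above 6. That order held in 29 of the 69 higher probes of the window (42%, against 39.7% of all probes called higher). The macrophage mean ran the opposite way in replicates 4, 5 and 6 (-0.45, -0.31 and -0.08). The lymphocyte mean followed neither order (-4.87, -5.51 and -5.10). The part of these cells in the excesses above was not tested.

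**Figure D4:**
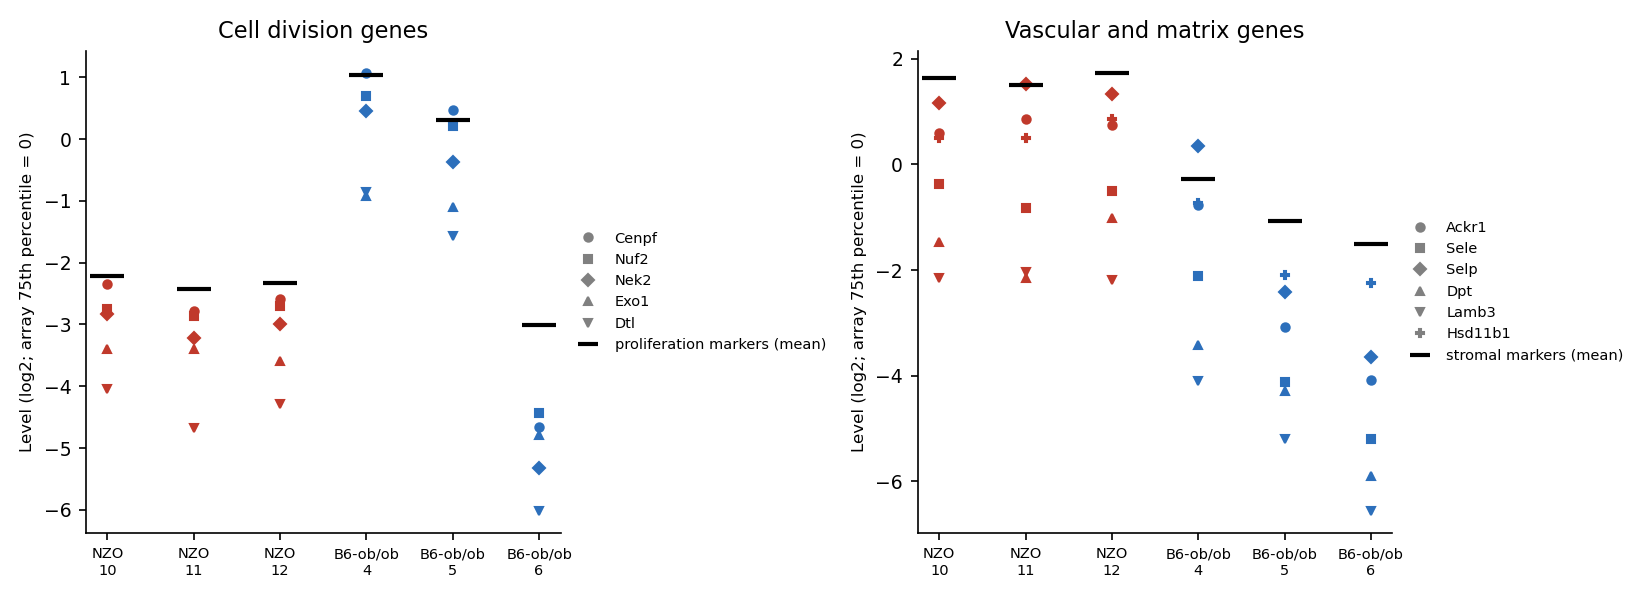
Each symbol is the level of 1 gene in 1 sample (log2, array 75th percentile 0; NZO red, B6-ob/ob blue) and black bars are the mean of a marker list in that sample. On the left, cell division genes stand lowest in B6-ob/ob replicate 6. On the right, the plotted genes Ackr1, Sele, Selp, Dpt, Lamb3 and Hsd11b1 are close together in NZO. In B6-ob/ob these genes are highest in replicate 4 and lowest in replicate 6, as the stromal marker mean is (-0.28, -1.07 and -1.51). The matrix genes Tgfb2 and Lamc1, not plotted, ran in the opposite order in B6-ob/ob.

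Genes of metabolism changed in both directions. Of 36 measured, 4 were higher (11.1%, against 13.2% of all genes) and 8 lower (22.2%, against 8.92%; median -0.01). The higher ones act on steroids, xenobiotics and phospholipids: Hsd11b1, which regenerates active glucocorticoid, read 0.51, 0.51 and 0.86 in NZO and -0.73, -2.10 and -2.25 in B6-ob/ob (2.32 ± 0.41, 4.99-fold, limma adjusted p = 0.0103). The flavin mono-oxygenase genes Fmo2 and Fmo1, which lie next to each other, were higher by 1.96 ± 0.23 (adjusted p = 0.00235) and 1.73 ± 0.17 (adjusted p = 0.00125), and a further member of the cluster, Fmo4, did not pass (1.13, adjusted p = 0.0696). Lpgat1, a lysophospholipid acyltransferase, was higher by 0.49 at its brightest probe, which lost its call without NZO replicate 10 or 11 or B6-ob/ob replicate 5 or 6 and with the slide as a block (adjusted p 0.0719 to 0.126); its other probes differed by 0.94 (adjusted p = 0.00688) and 0.29 (not called).

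Several of the lower ones were mitochondrial genes. Ppox, an enzyme of haem synthesis, read -0.26, -0.09 and 0.18 in NZO and 1.49, 1.76 and 1.52 in B6-ob/ob (-1.65 ± 0.16, limma adjusted p = 0.00123). The succinate dehydrogenase subunit gene Sdhc read 2.42, 2.37 and 2.44 against 3.46, 3.34 and 3.18 (-0.92 ± 0.12, adjusted p = 0.00365), and fumarase, Fh1, the next enzyme of the tricarboxylic acid cycle, differed by -0.86 ± 0.16 (adjusted p = 0.0131). The import channel relative Tomm40l (-0.72) and the mitoribosomal gene Mrps14 (-0.59) were lower by less. The mitochondrial transcription factor gene Tfb2m (0.21) did not pass. Soat1, at the middle probe given above, and the ceramide desaturase gene Degs1 (-0.54, adjusted p = 0.015) were also lower. Ppox and Sdhc kept their calls whichever sample was left out. Without B6-ob/ob replicate 5 the calls of Fh1, Tomm40l, Mrps14, Degs1 and Soat1 were lost (adjusted p 0.0554 to 0.0839). Those of Mrps14 and Degs1 were also lost without NZO replicate 10 or 11, and that of Tomm40l without NZO replicate 11 (0.051 to 0.079). With the slide as a block Fh1, Mrps14, Degs1 and Soat1 lost theirs (0.0554 to 0.0836). No list of mitochondrial genes was set up, so these were picked from the list of metabolic genes after its values were seen.

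Channel and G-protein regulator genes had 3 higher and 1 lower of 10 measured (30% and 10%, against 13.2% and 8.92% of all genes). Rgs8 was higher by 1.51 ± 0.16 (limma adjusted p = 0.0019) and Rgs5, a gene of pericytes, by 1.14 ± 0.14 (adjusted p = 0.00268); its levels were 3.54, 3.24 and 3.16 in NZO and 2.14, 2.21 and 2.16 in B6-ob/ob, tight in both strains. The potassium channel gene Kcnj10 was higher by 1.94 ± 0.49 (adjusted p = 0.0364; 2 of 3 B6-ob/ob arrays read it well above background), Rgs7 was lower at -0.56 ± 0.12 (adjusted p = 0.0196), and Rgs4 (0.27) and Rgs16 (1.03, adjusted p = 0.0638, but 1.37 and 0.00825 without B6-ob/ob replicate 6) did not pass. Kcnj10 lost its call without any one of NZO replicates 10, 11 and 12 and B6-ob/ob replicate 5 (adjusted p 0.0603 to 0.106), as did Rgs7 (0.0521 to 0.0946), and with the slide as a block both did (0.0656 and 0.093).

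Of 22 measured transcription and chromatin genes 2 were higher and 2 lower, so 18.2% were called, near the 22.1% of all genes. The mesenchymal homeobox gene Prrx1 read -1.87, -1.79 and -1.79 in NZO and -3.32, -3.91 and -4.58 in B6-ob/ob (2.12 ± 0.31, limma adjusted p = 0.00511), and the retinoid receptor gene Rxrg was higher by 1.52 ± 0.23 (adjusted p = 0.00609). The lamin B receptor gene Lbr (-0.51, adjusted p = 0.0235) and Atf6, a sensor of unfolded protein in the endoplasmic reticulum (-0.43, adjusted p = 0.0442, at its brighter probe), were lower. The other Atf6 probe stood at 0.15 (adjusted p = 0.52). Atf3, a stress-induced factor, did not pass (0.78, adjusted p = 0.129), nor did Prox1 (0.39) or Esrrg (0.53). Lbr lost its call without NZO replicate 10 or 11 or B6-ob/ob replicate 4 or 5 (adjusted p 0.0545 to 0.0915), and Atf6 without any sample but B6-ob/ob replicate 6 (0.0948 to 0.162). Both lost it with the slide as a block (0.0655 and 0.157).

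Of 18 measured genes of the secretory pathway 2 were higher and 1 lower, so 16.7% were called, near the 22.1% of all genes. Niban1, a stress-induced protein listed as Fam129a, was higher by 1.15 ± 0.23 (limma adjusted p = 0.0171), Vamp4 was higher at its brightest probe, given above, and the actin-nucleating subunit gene Arpc5 was lower (-0.59 ± 0.13, adjusted p = 0.025). The coat protein gene Copa did not pass at its brightest probe (-0.38, adjusted p = 0.0844) but was lower at the other (-0.67, adjusted p = 0.0232). Sec16b (-0.43) and the presenilin gene Psen2 (-0.05) did not pass. Niban1 lost its call without NZO replicate 10 or 11 or B6-ob/ob replicate 5 (adjusted p 0.0577 to 0.0723), and Arpc5 without NZO replicate 10 or 11 or B6-ob/ob replicate 5 or 6 (0.0567 to 0.0956) and with the slide as a block (0.0614).

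Of 7 measured cell division genes limma called 0, and 0 had an unadjusted p under 0.05, though their median difference was -1.26. With array weights limma called 6, in a fit that called 292 of the 497 measured probes of the window. Cenpf, a kinetochore protein of dividing cells, read -2.34, -2.78 and -2.59 in NZO and 1.07, 0.48 and -4.66 in B6-ob/ob, a difference of -1.53 ± 1.45 (limma adjusted p = 0.51). B6-ob/ob replicates 4 and 5 thus lay far above NZO and replicate 6 below it. Nuf2 read 0.70, 0.21 and -4.44 in B6-ob/ob against -2.87 to -2.70 in NZO, and Nek2, Exo1 and Dtl had the same arrangement. The mean proliferation marker level was -2.42 to -2.22 in NZO and 1.03, 0.31 and -3.01 in B6-ob/ob replicates 4, 5 and 6. Without replicate 6, Cenpf, Nuf2, Nek2, Exo1, Dtl and Cenpl were called lower in NZO: the Cenpf difference was -3.34 (adjusted p = 0.00138) and that of Cenpl, a centromere protein, -1.07 (adjusted p = 0.00764) against -0.59 (adjusted p = 0.351) with it.

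Outside these lists, the greatest excess among genes with a symbol and a probe well above background on all arrays was that of Ildr2, a membrane protein gene studied earlier as a modifier of diabetes in obese mice. It read -0.55, -0.35 and -0.39 in NZO and -3.14, -3.54 and -4.32 in B6-ob/ob, an excess of 3.23 ± 0.30 (9.4-fold, limma adjusted p = 0.00108), and the strains lay apart by more than 2 units at their nearest. Gpa33, an epithelial surface antigen, was higher by 1.60 ± 0.19 (adjusted p = 0.00259). Angptl1, a secreted relative of the angiopoietins, and Tdrd5, known from the germ line, were above background in all NZO and no B6-ob/ob samples, by at least 2.58-fold (adjusted p = 0.00811; means -4.08 and -6.71) and at least 3.06-fold (adjusted p = 0.011; means -3.84 and -5.83). Both passed the filter only through the NZO arrays, so they could hardly be called lower.

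The greatest deficit at the brightest probe of a gene with a symbol, among those well above background on all arrays, was that of Cryzl2, a quinone oxidoreductase relative listed as BC026585. It read -1.17, -0.55 and -1.32 in NZO and 1.04, 1.17 and 1.03 in B6-ob/ob (-2.09 ± 0.22, limma adjusted p = 0.00159). Fmn2, a formin that nucleates actin, was lower at both measured probes (-1.78 ± 0.45, adjusted p = 0.0361 at the brighter one). After Ppox (-1.65, given above) came the kinase gene Uhmk1 at -1.35 ± 0.14 (adjusted p = 0.00171), then Sdccag8, a centrosomal protein lower at all 3 measured probes (-1.02 ± 0.13, adjusted p = 0.0034), and the sushi domain gene Susd4 (-0.99 ± 0.13, adjusted p = 0.00392). The dynamin gene Dnm3 was lower at both measured probes (-0.99 at the brighter, where normexp background correction gave -0.22 with an adjusted p of 0.367, and -2.19 at the other, above background on 2 of 3 NZO arrays), and so was Mettl18, a histidine methyltransferase listed as 2810422O20Rik, at its probe (-0.95 ± 0.23, adjusted p = 0.0321). Fmn2 lost its call at the brighter probe without NZO replicate 10 or 11 or B6-ob/ob replicate 5 or 6 (adjusted p 0.0807 to 0.117). Its other probe (-1.52, limma adjusted p = 0.0018) kept the call in every tested alternative fit to the scanner files. Mettl18 lost its call without any sample but B6-ob/ob replicate 4 (0.0513 to 0.0967) and with the slide as a block (0.0842).

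**Figure D5:**
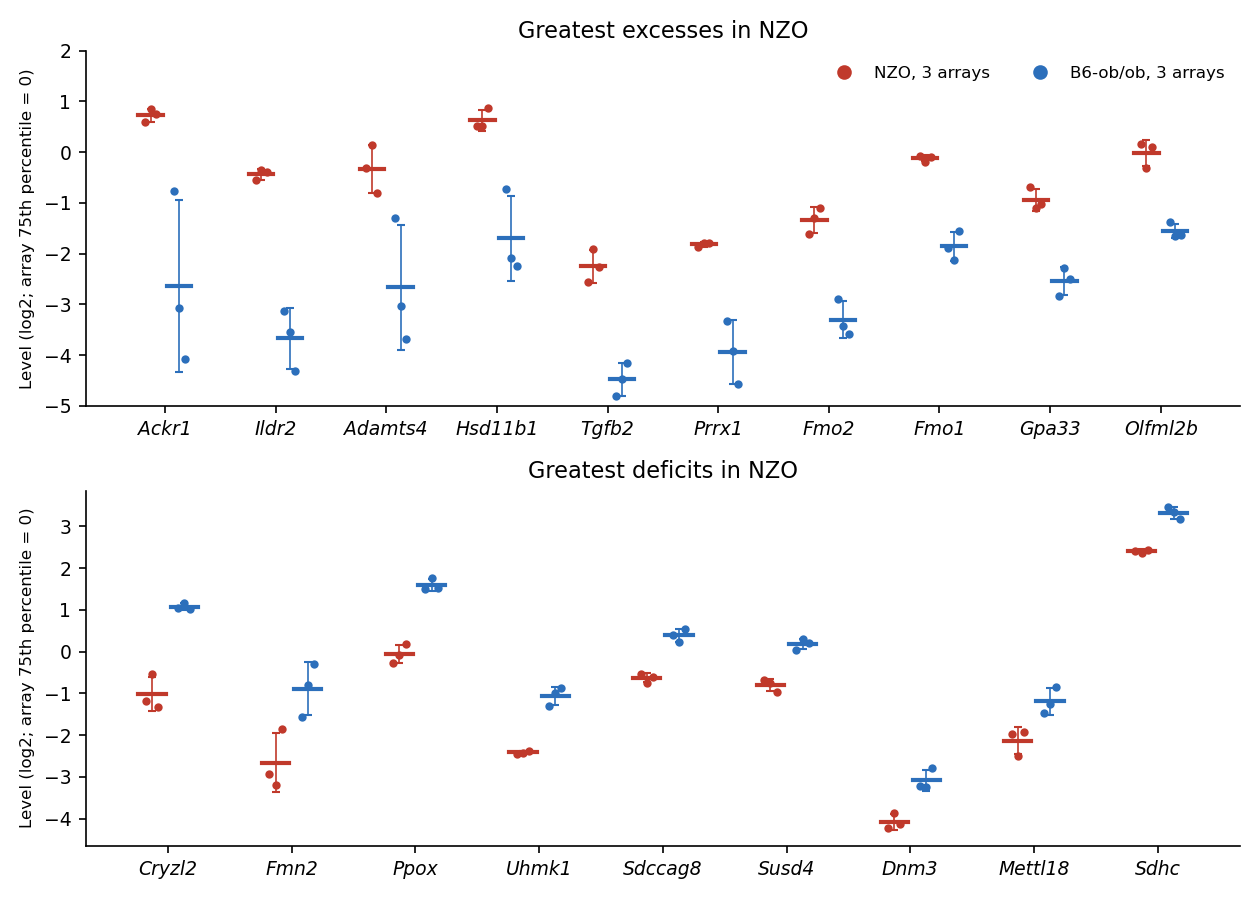
Levels (log2, array 75th percentile 0) of the 10 genes with the greatest excesses and 9 of those with the greatest deficits in NZO, each at its brightest probe, among called probes well above background on all 6 arrays and without overlap of the strains, which is part of how they were chosen; points are samples, lines means and bars 1 SD. The B6-ob/ob samples lie far apart for Ackr1, Adamts4 and Hsd11b1.

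The called probes also differed in brightness. Higher ones had a median level of -2.19 over all samples and lower ones -0.80, against -0.55 for those not called, while their GC content was alike at medians of 41.7%, 40% and 41.7%. Of the 376 measured probes whose gene strand was known, 3 lay on the strand opposite to the gene that names them, and 1 of these was called.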

How the data were processed

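RNA of 6 islet samples was hybridised to 6 one-colour Agilent arrays (design 014868), and the authors deposited scanner intensities. The software was Agilent's Feature Extraction, in version 10.5.1.1 per the file headers and 9.1 per the submitters' processing notes; probe positions are mm9 per the file headers. The processed signal used is background-subtracted, and the well-above-background and outlier flags are the deposited ones. The authors' deposited value table, taken as processed intensities of unstated scaling and put on the log2 scale, was used only as an alternative. Its columns follow arrays of the other strain.

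Flagged spots (61 to 76 per array) were left out, spots of a probe averaged, and log2 signals set relative to the 75th percentile of the array's non-control probes. Those percentiles were 342 to 453 intensity units. limma 3.58.1 in R 4.3.3 (lmFit, eBayes) compared 3 NZO with 3 B6-ob/ob samples by probe, two-sided, with Benjamini-Hochberg adjustment over all 24628 measured probes and a threshold of 0.05. The fit was tested on simulated data. The number of arrays limits the precision. Symbols of 500 probes were updated by accession and of 153 by symbol or synonym from RefSeq's GRCm38.p6 gene table, used for names and gene strand alone; 152 keep the file's name. One probe per gene, the brightest measured, stands for a list member.

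Genes named are the 10 greatest excesses and 10 greatest deficits among called probes with a symbol, above background on all arrays and without overlap of the strains; up to 5 bounds in each direction; up to 4 called members of each gene list (2 brightest where none was called); and all genes with opposite probes. Results for a few of these genes, and the sequence of 1 probe, are not reported here. Further list members and a few probes beside them were named after their values were seen. The members, lists and tests were chosen with earlier results of these data known, and other background corrections, scalings, filters, blocks and samples left out were tried. Each of the 3 slides was scanned in a run of its own, so slide and scan are one batch: slide 1 held NZO replicate 12, slide 2 NZO replicate 10 and B6-ob/ob replicate 4, and slide 3 the others.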

Additional observations from a re-analysis of the deposited data

How the results depend on the processing

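Of 73 called probes checked by name, 36 kept their call in every tested alternative fit to the scanner files, and none turned direction there. The named probes were not checked in the deposited value table, whose columns follow arrays of the other strain. The counts in the window (69 higher, 61 lower, 130 in all) were 45, 40 and 85 with 1 probe per gene, where fewer probes were tested (26.2% of 324, against 22.1% of all genes), and with the slide as a fixed block 33 were lower and 81 called in all, with 25 of the 73 named calls lost. Array weights gave 150, 142 and 292, a fit whose weights did not converge. With a difference of at least 1 also required, 19 were lower and 65 called in all. Leaving out 1 sample gave 39 to 69 higher, 31 to 63 lower and 70 to 130 in all, the fewest without B6-ob/ob replicate 5. The deposited value table, by its own column labels, called 89. For the slide block, array weights, samples left out and value table, counts over the whole array are not given here. The median difference of 0.04 was 0.061 with normexp and the 75th percentile, 0.013 with normexp and quantile scaling, 0.048 with the median of detected probes, 0.014 with quantile scaling, 0.063 without a filter, 0.014 for probes measured on all arrays, 0.053 with 1 probe per gene, 0.024 with the slide block, 0.022 with array weights, -0.0078 within slide 2, 0.018 within slide 3 and 0.010 to 0.036 with 1 sample left out. Genes with opposite probes numbered 2 with the slide block, 12 with array weights and 2 to 3 with 1 sample left out, and the stretch from 175 to 180 Mb held 11 called probes with 1 probe per gene, 10 with the slide block and 8 to 18 with 1 sample left out; both alternatives were chosen after seeing the data. Fcgr2b, not called, turned to -0.016 with array weights and ran from -0.023 to 0.23 with 1 sample left out. No paired analysis was possible because the strains share no replicate number; slides were compared as batches, not as pairs. Signal over background also limits the window: 308 of its 805 probes were not measured and were left out of the main test.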
